A study of Homo sapiens with 9 samples.

Results

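The ARNT2 knockout line C4 was compared with wild-type LN229 cells, an established human glioblastoma cell line, over every gene of the deposited table whose antilog averaged 10 or more across its 9 libraries. This rule kept 16457 of 19356 genes, and the comparison used 6 of the 9 libraries, 3 labelled WT and 3 labelled ARNT2 KO C4. The other 3 libraries came from B3, another LN229 line with the same knockout label. B3 entered the estimate of the spread and a direct contrast with C4. Polyadenylated RNA was sequenced, and the study asked what ARNT2 does in proliferation and in differentiation. The knockouts were made with CRISPR. The labels give no guide, no edited sequence and no statement that C4 grew from a single cell. Cells of every group were kept in DMEM with 5% fetal bovine serum at 37 °C and 5% CO2, and no label names an added agent. With a single C4 line, the loss of ARNT2 and any other way in which this line differs from wild type cannot be told apart. Whether the replicate libraries were grown as separate cultures is not stated, so p-values measure the spread between these libraries, which may be technical.

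ARNT2 belongs to the basic helix-loop-helix PAS family of transcription factors. It acts as a general partner: it pairs with sensor or tissue-specific members of the family, among them hypoxia-inducible factors, the aryl hydrocarbon receptor, SIM and NPAS proteins, and the pair binds DNA. Unlike its close relative ARNT, it is known mainly from neural tissue. ATF4 is the factor that cells make when amino acids run short or unfolded protein accumulates, and it switches on genes for amino acid synthesis, uptake and transfer RNA charging. NF-kB factors drive cytokine and chemokine genes, whereas interferon-regulated factors drive antiviral and antigen presentation genes.

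Each value below is a log2 value on the authors' scale, which is not divided by gene length, so levels are compared within a gene only. A difference is the C4 mean minus the WT mean on that scale ± its SE from limma, with 3 libraries a group. A gene was called, and is said to have risen or fallen, at a Benjamini-Hochberg adjusted p under 0.05 over all 16457 genes. Read depth is unknown. The median SD between replicates was 0.035 in WT and 0.031 in C4. In RNA from whole cultures, fewer cells of a kind and less RNA per cell cannot be told apart.

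Markers of the labelled cells and of other cell types were read from the WT and C4 libraries, each on its own scale. VIM, the mesenchymal and glial intermediate filament, lay between 17.83 and 18.03 over the WT and C4 libraries, CD44, the hyaluronan receptor, between 16.48 and 16.62, and S100B, a glial calcium-binding protein, between 16.12 and 16.49. NES, the progenitor filament nestin, lay between 15.32 and 15.47. GFAP lay between 6.61 and 6.91 and SOX9, a glial factor, between 4.09 and 4.23. SOX10, the factor of oligodendrocyte and neural crest lineages, lay between 17.31 and 17.36. All of these passed the filter. Of markers of other cells, PTPRC of leukocytes, CD3E of T cells and RBFOX3, STMN2 and DCX of neurons were below the filter. The neuronal genes SNAP25, at 11.2 to 11.5, and SYP, at 8.23 to 8.33, passed it, as did CD14 and CSF1R of myeloid cells. Of 6 immune markers tested, 0 rose and 1 fell, with a median of -0.02, or 0.009 with every library at the same total. Of 10 endothelial and pericyte markers 2 rose and 4 fell, and of 12 epithelial markers 0 rose and 2 fell. Over all genes tested, 28.2% rose and 28.0% fell.

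ARNT2 RNA was lower in C4 but present. ARNT2 (ENSG00000172379.20, protein-coding, GRCh38 chr15:80404350-80597937, plus strand) had values of 13.55, 13.59 and 13.58 in the WT libraries and 12.22, 12.15 and 12.05 in the C4 libraries. The 3 C4 libraries lay below every WT library, and their spread, an SD of 0.088, was wider than the 0.019 in WT. The difference of -1.43 ± 0.03 left 37.1% of the WT level (limma adjusted p = 1.88e-20), and an exact two-sided permutation test over libraries gave p = 0.1, the smallest that 3 against 3 allow. The labels do not say which exon was edited, so the RNA level is not a measure of the protein.

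Among 13 bHLH-PAS genes tested, 4 rose (30.8%) and 7 fell (53.8%), beside 28.2% and 28.0% of all genes tested. HIF1A, the oxygen-regulated factor, fell by 0.31 ± 0.02, from 15.59, 15.57 and 15.53 in WT to 15.28, 15.27 and 15.22 in C4. EPAS1, its relative HIF-2 alpha, rose by 0.19 ± 0.03, and the neural factor NPAS3 rose by 0.45 ± 0.04, with C4 libraries all at 10.61. NPAS1 fell by 0.44 ± 0.06, and ARNTL2, a clock-related partner, fell by 0.34 ± 0.04. AHR, the dioxin receptor, differed by 0.02 ± 0.02 (adjusted p = 0.543) with overlapping libraries. ARNT, the closest relative, differed by 0.04 ± 0.02 (adjusted p = 0.156), and over the alternative settings its adjusted p ranged from 0.0165, with every library at the same total, to 0.32. It was also called with each library centred on its median (adjusted p = 0.0356). Among 8 target genes of the aryl hydrocarbon receptor 3 rose and 2 fell: NQO1, a quinone reductase, rose by 0.62 ± 0.03, whereas the hydroxylase gene CYP1B1 fell by 0.34 ± 0.04.

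The comparison called 9244 genes, 56.2% of those tested, of which 4644 were higher in C4 (28.2% of genes tested) and 4600 lower (28.0%). Most of these differences were small. The median size over called genes was 0.168, and 6748 of them were below 0.25. A rise of at least 1 was seen in 19 genes (0.115%) and a fall of at least 1 in 63 (0.383%), and a further 474 called genes differed by 0.5 to 1. The C4 and WT libraries did not overlap for 8818 of the called genes, and for 9989 of all genes tested, called or not. The median over all tested genes was 0.001, the value beside which each gene list below is given. Counts of list members that rose or fell stand beside the shares of 28.2% and 28.0%. When every library was scaled to the same total, that median became 0.03 and the called genes that were higher made up 61.5% in place of 50.2%, and 58.6% with every library centred on its median.

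The genes that fell most also had varied functions. ABCA8, an ABC-type carrier of lipids (GRCh38 chr17:68867292-68955392, minus strand), had values of 11.46, 11.40 and 11.37 in the WT libraries and 8.43, 8.19 and 8.27 in the C4 libraries, an 8.65-fold lower level. Its neighbour family member ABCA6 fell by 1.40 ± 0.03, and of 11 ABCA genes 4 rose and 7 fell. LCN2, the lipocalin that binds bacterial siderophores (chr9:128149071-128153455, plus strand), had values of 12.66, 12.94 and 12.68 in the WT libraries and 9.84, 9.66 and 9.71 in the C4 libraries. TMPRSS15, the protease enteropeptidase (chr21:18269116-18485879, minus strand), stood at 13.29, 13.40 and 13.35 in WT and at 10.52, 10.48 and 10.45 in C4, a 7.27-fold fall. BDKRB2, the bradykinin B2 receptor, stood at 12.39, 12.23 and 12.25 in WT and at 10.02, 9.98 and 9.97 in C4. In each of these the libraries of either group lay within 0.3 of each other, far less than the distance between the groups. These genes were chosen for large differences without overlap of the C4 and WT libraries. UBD, a ubiquitin-like modifier, fell by 1.78 ± 0.04, STC2, the secreted glycoprotein stanniocalcin 2, by 1.85 ± 0.03, and IGFBP3, which carries insulin-like growth factors, by 1.73 ± 0.04. The phospholipase-like gene PLBD1 fell by 1.77 ± 0.06 and the heparan sulfate 6-O-sulfotransferase gene HS6ST2 by 1.69 ± 0.06.

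**Figure D1:**
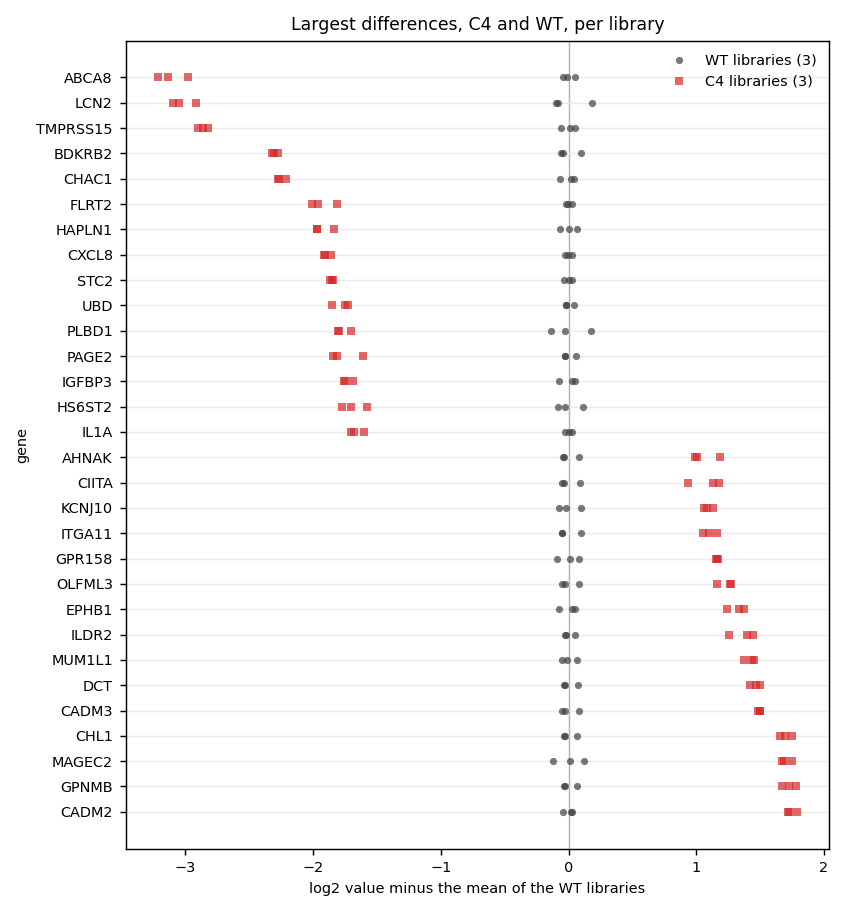
Each point is the log2 value of a library minus the mean of the 3 WT libraries. Shown are the 15 genes with the largest falls and the 15 with the largest rises in C4. Only called genes whose C4 and WT libraries did not overlap were eligible. The C4 points lie left of -1.5 for the genes that fell and right of 0.9 for those that rose, whereas the WT points lie within 0.2 of 0.

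The genes with the largest rises had varied functions. CADM2, a synaptic immunoglobulin-domain adhesion protein, had values of 10.34, 10.33 and 10.27 in the WT libraries and 12.11, 12.04 and 12.03 in the C4 libraries. GPNMB, a transmembrane glycoprotein of melanosomes and lysosomes, went from 15.07, 14.97 and 14.98 to 16.79, 16.68 and 16.73, a 3.31-fold higher level, and MAGEC2, a cancer-testis antigen on the X chromosome, from 8.93, 9.05 and 9.16 to 10.72, 10.73 and 10.80. All C4 libraries stood above all WT libraries for these genes, as the rule that chose them required. CHL1, an L1-family neural adhesion molecule, rose by 1.70 ± 0.03, and DCT, the melanin pathway enzyme dopachrome tautomerase, by 1.46 ± 0.05. EPHB1, an ephrin receptor, rose by 1.31 ± 0.05, KCNJ10, the glial inward rectifier potassium channel, by 1.09 ± 0.03, ITGA11, a collagen-binding integrin subunit, by 1.10 ± 0.05, and AHNAK, a giant scaffold protein, by 1.06 ± 0.04.

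Genes of the amino acid stress response fell together in C4. Of 18 factors and feedback genes tested, 13 fell and 3 rose, with a median of -0.40. Of 17 synthesis enzymes 14 fell and 2 rose, with a median of -0.64, of 18 transporters 12 fell and 3 rose, with a median of -0.31, and of 20 cytosolic aminoacyl-tRNA synthetases 15 fell and 0 rose, also with a median of -0.31. Against WT the medians of the same 4 lists in B3 were -0.05, -0.02, -0.08 and -0.01. Both comparisons share the WT libraries. In the direct contrast of C4 with B3, 14 of the 18 factors, 15 of the 17 enzymes, 8 of the 18 transporters and 15 of the 20 synthetases were lower in C4. Of the transporters, 7 were higher in C4. Counts from this contrast, here and below, stand beside 9284 genes called of all 16457 (56.4%). With each library left out in turn, 4282 to 4861 genes were higher in C4 than in B3 and 4081 to 4735 lower.

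ATF4, the central factor, stood at 16.11, 16.23 and 16.21 in WT and at 15.18, 15.16 and 15.18 in C4, a difference of -1.01 ± 0.03 (limma adjusted p = 5.96e-19). CHAC1, which degrades glutathione, had values of 12.63, 12.74 and 12.71 in the WT libraries and 10.41, 10.48 and 10.43 in the C4 libraries, a difference of -2.25 ± 0.03 (adjusted p = 5.59e-24). TRIB3, a pseudokinase that restrains ATF4, fell by 1.51 ± 0.03, DDIT3, the pro-apoptotic partner CHOP, by 1.39 ± 0.04, CEBPG by 0.87 ± 0.03 and SESN2, a leucine sensor of the mTORC1 pathway, by 0.86 ± 0.03. These are downstream members. The 3 members that rose are kinases that start the response: EIF2AK2, which senses viral RNA and also stands on the interferon list below, rose by 0.23 ± 0.03, EIF2AK4, which senses uncharged transfer RNA, by 0.18 ± 0.02 and EIF2AK3, which senses unfolded protein, by 0.17 ± 0.04, with WT libraries between 11.09 and 11.18 and C4 libraries between 11.28 and 11.31 for the latter.

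Among the enzymes, ASNS, which makes asparagine, fell most. Its values were 14.60, 14.72 and 14.68 in the WT libraries and 13.08, 12.99 and 13.02 in the C4 libraries, a difference of -1.64 ± 0.03 (adjusted p = 1.16e-22). ALDH1L2 and MTHFD2, mitochondrial enzymes of folate metabolism, fell by 1.42 ± 0.03 and 1.05 ± 0.03. PHGDH and PSAT1, which start the synthesis of serine, fell by 0.78 ± 0.02 and 0.88 ± 0.03, and SHMT2, which turns serine into glycine, by 0.73 ± 0.03. CTH, of cysteine synthesis, fell by 0.60 ± 0.03.

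Uptake genes were mostly lower, with 12 of 18 lower and 3 higher. SLC7A11, the cystine carrier, fell by 1.05 ± 0.02, from 14.50, 14.54 and 14.52 to 13.45, 13.45 and 13.51. Its heavy chain SLC3A2 fell by 0.69 ± 0.02, the leucine carrier SLC7A5 by 0.68 ± 0.03, the arginine carrier SLC7A1 by 0.83 ± 0.02 and the glutamine carrier SLC1A5 by 0.66 ± 0.02. SLC1A3, the glial glutamate carrier, rose by 0.31 ± 0.03. Of the synthetases, GARS for glycine fell by 0.81 ± 0.03, SARS for serine by 0.80 ± 0.03 and CARS for cysteine by 0.74 ± 0.02. HARS for histidine differed by 0.01 ± 0.02 (adjusted p = 0.801).

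Genes of neighbouring pathways had no common direction. Of 17 mitochondrial aminoacyl-tRNA synthetases 4 rose and 6 fell, with a median of -0.009 that became 0.02 with every library at the same total. Of 23 endoplasmic reticulum chaperone and unfolded protein genes 6 rose and 6 fell, with a median of -0.01. XBP1, the factor of the IRE1 branch, fell by 0.75 ± 0.03 and HERPUD1, of protein degradation, by 0.67 ± 0.03, whereas the calcium-binding chaperone gene CALR rose by 0.25 ± 0.03. HSPA5, the chaperone BiP, differed by 0.07 ± 0.03 (adjusted p = 0.0755). It was called without WT replicate 1 (adjusted p = 0.00207), with every library at the same total (0.00994), with each centred on its median (0.0194) and with no filter (0.0463), and over the other alternatives that p ranged up to 0.265.

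**Figure D2:**
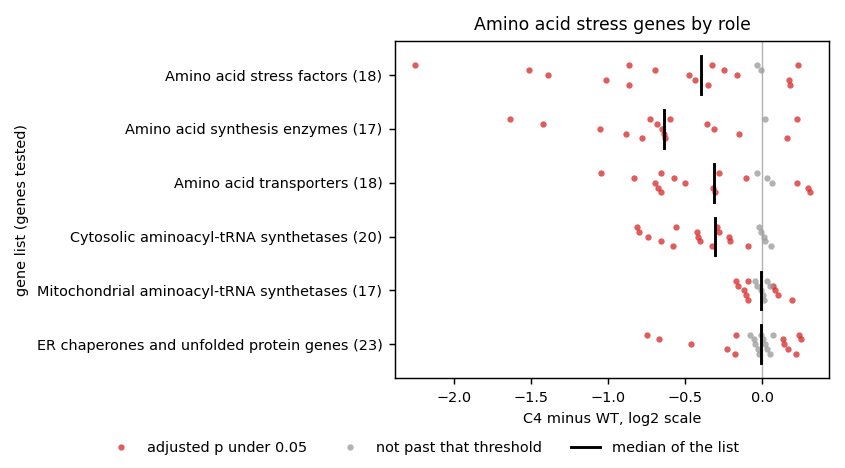
Each point is a gene, placed at its C4 minus WT difference on the log2 scale, in red where the adjusted p was under 0.05, and black bars are list medians. The medians of the first 4 lists lie between -0.64 and -0.31, and those of the mitochondrial synthetases and the chaperones at -0.009 and -0.01, the former at 0.02 with every library at the same total.

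The promoters of these genes were searched for TGATGNAA, the core of the element that ATF4 pairs bind, on both strands from 250 bases before to 50 after the start (RefSeq, GRCh38.p14). 12484 (75.9%) of the genes tested had such a window. A match was present in 3.01% of all promoters, in 19 of 57 promoters of the 4 amino acid lists (33.3%) and in 7 of 15 cytosolic synthetases (46.7%). The median difference was -0.56 over the 19 genes with a match and -0.29 over the others of these lists. Within the synthesis enzymes the order was the opposite, with -0.36 over 3 genes with a match and -0.64 over the others. Shown here with the match in capitals, 5′ to 3′ on the strand of the gene, are the strongest responder, the enzyme that fell most, 2 synthetases and SLC1A3, which has a match and rose. AARS was chosen after its values were seen.
CHAC1: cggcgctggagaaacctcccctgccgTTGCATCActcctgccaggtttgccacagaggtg
ASNS: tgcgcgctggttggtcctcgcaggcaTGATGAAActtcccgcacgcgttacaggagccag
AARS: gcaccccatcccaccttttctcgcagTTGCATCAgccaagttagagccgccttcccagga
IARS: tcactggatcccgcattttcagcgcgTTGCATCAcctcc
SLC1A3: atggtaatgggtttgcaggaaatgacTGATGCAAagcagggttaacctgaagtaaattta
The 5 stretches lie at chr15:40953236-40953295, plus strand, for CHAC1, chr7:97872443-97872502, minus strand, for ASNS, chr16:70289660-70289719, minus strand, for AARS, chr9:92293698-92293736, minus strand, for IARS and chr5:36596342-36596401, plus strand, for SLC1A3. AARS, for alanine, fell by 0.42 ± 0.02 and IARS, for isoleucine, by 0.56 ± 0.02. A match is a run of letters and no evidence of binding.

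Inflammatory signalling genes were lower at each level, from ligands to factors. Of 17 interleukins and chemokines tested 12 fell and 2 rose, with a median of -0.36, of 18 cytokine receptors 11 fell and 4 rose, with a median of -0.16, and of 20 NF-kB subunits, feedback genes and targets 16 fell and 1 rose, with a median of -0.50. In B3 against the same WT libraries these medians were -0.20, -0.10 and -0.13.

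CXCL8, the neutrophil chemokine interleukin 8, had values of 14.56, 14.59 and 14.54 in the WT libraries and 12.71, 12.65 and 12.66 in the C4 libraries, a difference of -1.89 ± 0.03 (adjusted p = 8.35e-23). CXCL1 and CXCL3, of the same chemokine group, fell by 1.09 ± 0.03 and 1.16 ± 0.05. IL1A and IL1B, the interleukin 1 ligands, fell by 1.66 ± 0.04 and 1.16 ± 0.05. Both lie in a stretch of chromosome 2 where most genes were lower, described below, and without the 2 of them the median of the list was -0.34. LIF, a cytokine of the interleukin 6 family, fell by 1.05 ± 0.02, from 15.46, 15.44 and 15.42 to 14.38, 14.39 and 14.41. IL6 itself was low, between 4.31 and 4.33 in WT, and differed by 0.00 ± 0.02 (adjusted p = 0.876).

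Receptors showed smaller differences. IL4R fell by 0.74 ± 0.05, from 7.55, 7.65 and 7.60 to 6.85, 6.85 and 6.89, and IFNGR2, the signalling chain of the interferon gamma receptor, by 0.52 ± 0.02. IL1R1, which binds interleukin 1 and lies in the same region of chromosome 2, fell by 0.44 ± 0.03, whereas LIFR, which binds LIF, rose by 0.24 ± 0.03. IL6ST, the chain shared by both LIF and interleukin 6 receptors, fell by 0.10 ± 0.03.

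Of the NF-kB group, the subunit genes NFKB2 and RELB fell by 0.57 ± 0.02 and 0.54 ± 0.03. Their inhibitors fell as well: NFKBIA by 0.53 ± 0.02 and TNFAIP3, the enzyme A20, by 0.74 ± 0.03. Among targets, SOD2, the mitochondrial superoxide dismutase, stood at 14.48, 14.53 and 14.53 in WT and at 13.56, 13.57 and 13.49 in C4, TRAF1, a receptor adaptor, at 9.89, 9.89 and 9.84 and at 8.88, 8.85 and 8.77, and ICAM1, the leukocyte adhesion molecule, fell by 0.72 ± 0.03. PTGS2, the prostaglandin enzyme COX-2, fell by 0.56 ± 0.04.

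Acute-phase genes were split in size. Of 11 tested, 8 fell and 2 rose, with a median of -0.14. LCN2 fell by 3.02 ± 0.06, complement C3 by 1.27 ± 0.03, from 15.84, 15.81 and 15.79 to 14.60, 14.53 and 14.49, the copper oxidase CP by 1.08 ± 0.05 and the complement protease C1S by 0.89 ± 0.03. CFB, of the alternative complement pathway, rose by 0.45 ± 0.06, with every C4 library above every WT library. In B3 against the same WT libraries the median of the acute-phase list was -0.743, further below 0 than in C4. In the direct contrast 7 of these 11 genes were higher in C4 than in B3 and 3 were lower. The G-protein coupled receptor and RGS list had 8 rises and 13 falls of 36, and RGS16, which shortens G-protein signals, rose by 0.90 ± 0.04.

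Hypoxia targets showed no common direction, but single members moved far. Of 23 tested 4 rose and 7 fell, with a median of 0.01. STC2 had values of 13.12, 13.06 and 13.10 in the WT libraries and 11.25, 11.23 and 11.24 in the C4 libraries, and NDRG1, a stress-induced scaffold, fell by 0.78 ± 0.03. EGLN1, the oxygen-sensing prolyl hydroxylase, fell by 0.39 ± 0.02. CA9, the classic hypoxia carbonic anhydrase, was near the floor in both groups, at 3.55 to 3.61, and ADM, adrenomedullin, differed by 0.04 ± 0.04 (adjusted p = 0.373). Of 19 glycolysis genes 13 rose and 5 fell, with a median of 0.12: LDHA, lactate dehydrogenase, rose by 0.31 ± 0.03 and PKM, pyruvate kinase, by 0.27 ± 0.03, whereas the hexokinase HK2 fell by 0.21 ± 0.02 and HK1 rose by 0.31 ± 0.03.

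Of 8 VEGF ligands and receptors 5 rose and 2 fell, and both that fell were ligands. VEGFA, the main vascular growth factor, stood at 13.20, 13.18 and 13.17 in WT and at 11.57, 11.53 and 11.56 in C4, a difference of -1.63 ± 0.03 (adjusted p = 2.96e-23). VEGFC, the lymphatic ligand, fell by 0.43 ± 0.05, and VEGFB rose by 0.38 ± 0.03. The receptors rose less than VEGFA fell: NRP2 by 0.57 ± 0.03, FLT1 by 0.24 ± 0.02 and NRP1 by 0.19 ± 0.03, each with C4 libraries above all WT libraries.

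Growth factor receptors and early response genes were mostly lower. Of 26 receptor tyrosine kinases 19 fell and 3 rose, with a median of -0.19. MET, the hepatocyte growth factor receptor, fell by 0.77 ± 0.02, from 13.97, 13.89 and 13.93 to 13.15, 13.16 and 13.18, PDGFRA by 0.63 ± 0.03, DDR2, a collagen receptor, by 0.57 ± 0.02, AXL by 0.47 ± 0.03 and EGFR by 0.24 ± 0.04. Of 22 immediate early factors 15 fell and 3 rose, with a median of -0.34. EGR1 stood at 16.25, 16.31 and 16.32 in WT and at 15.36, 15.21 and 15.27 in C4, and EGR2 at 12.38, 12.40 and 12.45 and at 11.23, 11.14 and 11.21. NR4A1, an orphan nuclear receptor, fell by 0.80 ± 0.02 and FOSL1 by 0.40 ± 0.02, whereas JUN rose by 0.28 ± 0.03. Of 20 ERK output and feedback genes 10 fell and 5 rose: ETV4 fell by 0.38 ± 0.02, and the phosphatase genes DUSP4 and DUSP6 went apart, with differences of 0.38 ± 0.02 and -0.21 ± 0.02.

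Genes of the interferon response were higher. Of 45 tested 38 rose and 4 fell, with a median of 0.34. In B3 against the same WT libraries the median was 0.006, and in the direct contrast 41 of the 45 were higher in C4 than in B3. IFI6, which acts at mitochondria and the endoplasmic reticulum, had values of 13.11, 12.95 and 12.97 in the WT libraries and 13.76, 14.05 and 14.17 in the C4 libraries, the widest C4 spread of the genes named from this list. ISG15, a ubiquitin-like modifier, stood at 9.47, 9.54 and 9.52 in WT and at 10.27, 10.44 and 10.42 in C4. UBA7, the enzyme that activates ISG15, rose by 0.74 ± 0.03, the antiviral GTPase MX2 by 0.78 ± 0.04, and IFIT1, which binds foreign RNA ends, by 0.69 ± 0.04. The signalling factor IRF9 rose by 0.63 ± 0.03. MX1, the neighbour and relative of MX2, differed by 0.03 ± 0.05 (adjusted p = 0.6), with overlapping libraries.

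A search of the same promoter windows for GAAANNGAA, the core of the interferon-stimulated response element, on both strands found it in 9.05% of all promoters and in 26 of 35 promoters of this list (74.3%). The median difference was 0.39 over the 26 with a match and 0.34 over the other 9. Shown are the gene with the largest rise of the list, ISG15, IFIT1 and IFITM1, a membrane protein that blocks viral entry. A match of each is in capitals, 5′ to 3′ on the strand of the gene. The stretches of IFI6, ISG15 and IFIT1 hold further matches, left in lower case.
IFI6: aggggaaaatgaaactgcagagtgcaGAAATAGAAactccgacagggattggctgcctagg
ISG15: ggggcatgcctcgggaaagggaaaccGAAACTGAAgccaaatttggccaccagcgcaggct
IFIT1: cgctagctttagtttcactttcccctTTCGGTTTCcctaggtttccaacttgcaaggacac
IFITM1: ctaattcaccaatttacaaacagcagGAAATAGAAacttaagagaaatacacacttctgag
They lie at chr1:27672251-27672311, minus strand, for IFI6, chr1:1013370-1013430, plus strand, for ISG15, chr10:89392495-89392555, plus strand, for IFIT1 and chr11:313974-314034, plus strand, for IFITM1. IFITM1 rose by 0.69 ± 0.04. IFITM genes are near copies of each other, so reads may be shared among them.

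Antigen presentation genes rose too. All 12 MHC class II genes tested rose, with a median of 0.53 and differences between 0.393 and 1.082, and all 12 were higher in C4 than in B3. CIITA, the master activator of class II genes, had values of 11.48, 11.36 and 11.34 in the WT libraries and 12.33, 12.57 and 12.53 in the C4 libraries. HLA-DOA and HLA-DMA, which regulate peptide loading, rose by 0.91 ± 0.02 and 0.73 ± 0.03, and CD74, the invariant chain, from 18.87, 18.78 and 18.78 to 19.22, 19.18 and 19.20. Of 17 class I genes 12 rose and 1 fell, with a median of 0.19: HLA-C rose by 0.53 ± 0.03, HLA-B by 0.40 ± 0.03, the light chain B2M by 0.25 ± 0.03 and NLRC5, the class I activator, by 0.39 ± 0.05. HLA genes resemble each other and vary between people, so their counts are uncertain.

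**Figure D3:**
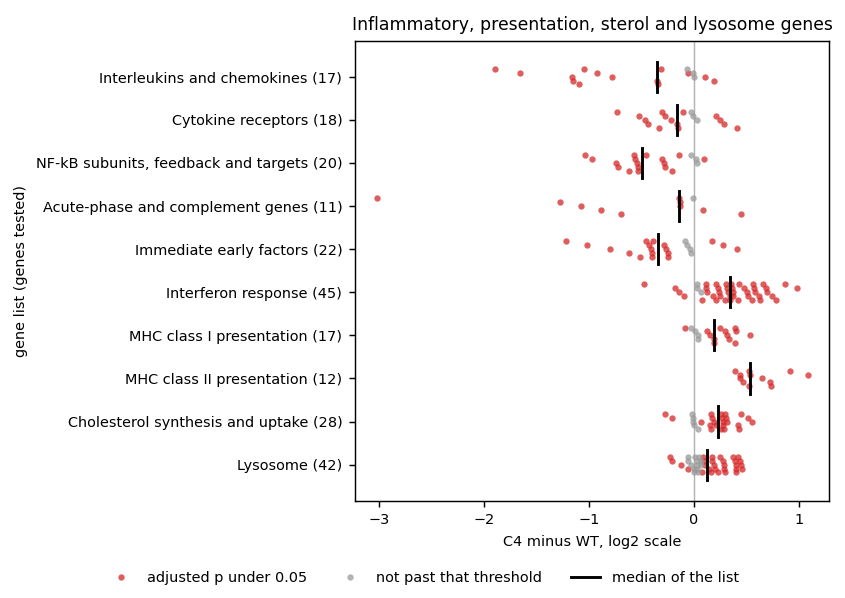
Each point is a gene, placed at its C4 minus WT difference on the log2 scale, in red where the adjusted p was under 0.05, and black bars are list medians. The first 5 lists have medians between -0.50 and -0.14 and the last 5 between 0.12 and 0.53.

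Sterol genes and lysosome genes rose by small amounts. Of 28 genes of cholesterol synthesis and uptake 21 rose and 2 fell, with a median of 0.23. HMGCS1, an early enzyme, rose by 0.55 ± 0.02, from 13.33, 13.29 and 13.35 to 13.89, 13.87 and 13.85. INSIG1, which holds the sterol sensor in place, rose by 0.51 ± 0.03. SREBF2, the factor that drives these genes, differed by -0.02 ± 0.03 (adjusted p = 0.577). SQLE, squalene epoxidase, fell by 0.28 ± 0.03, and lies in a lowered region described below. The 16 fatty acid synthesis genes had 7 rises and 6 falls: FADS2, a desaturase, rose by 0.82 ± 0.03 and SCD by 0.50 ± 0.03, whereas the neighbouring gene FADS3 fell by 0.50 ± 0.04.

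Of 42 lysosome genes 25 rose and 4 fell, with a median of 0.12, and 33 were higher in C4 than in B3, where the median against WT was -0.11. CTSD, cathepsin D, rose by 0.45 ± 0.03, from 16.31, 16.22 and 16.21 to 16.67, 16.69 and 16.73. The sphingomyelinase SMPD1 rose by 0.43 ± 0.03, the proton pump subunit ATP6V0D1 by 0.40 ± 0.02 and LAMP1, an abundant membrane protein, by 0.29 ± 0.03. NPC1, the cholesterol exporter, differed by 0.00 ± 0.02 (adjusted p = 0.962). The sequence TCACGTGA, the palindrome bound by MITF and TFE factors, was present in 2.01% of all promoters and in 7 of 28 lysosome promoters, with a median difference of 0.23 with a match and 0.07 without. Stretches of LAMP1 and ATP6V0D1 show it in capitals, 5′ to 3′ on the strand of the gene.
LAMP1: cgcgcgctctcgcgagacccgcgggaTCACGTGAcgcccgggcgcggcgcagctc
ATP6V0D1: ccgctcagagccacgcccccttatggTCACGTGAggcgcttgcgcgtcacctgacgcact
They lie at chr13:113297184-113297238, plus strand, for LAMP1 and chr16:67481184-67481243, minus strand, for ATP6V0D1.

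MITF itself, the factor of pigment cells, rose by 0.17 ± 0.03, from 12.18, 12.17 and 12.18 to 12.32, 12.37 and 12.35. TFEB, its lysosomal relative, fell by 0.19 ± 0.04, and TFE3 differed by -0.03 ± 0.03 (adjusted p = 0.31). Of 13 factors and melanosome genes 7 rose and 2 fell. TYRP1, a melanin enzyme, had values of 9.19, 9.16 and 9.13 in the WT libraries and 10.20, 10.18 and 10.17 in the C4 libraries, and PMEL, the melanosome fibril protein, rose by 0.29 ± 0.05. Together with GPNMB and DCT, 3 members rose by over 1, while SOX10 differed by -0.03 ± 0.03 (adjusted p = 0.421).

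Adhesion and matrix lists had members at both ends. Of 26 CADM, L1 and FLRT family genes 9 rose and 9 fell. Beside CADM2 and CHL1, CADM3 rose by 1.49 ± 0.04 and CADM1 by 0.37 ± 0.03, while FLRT2, a guidance receptor ligand, had values of 10.47, 10.51 and 10.46 in the WT libraries and 8.52, 8.47 and 8.67 in the C4 libraries and FLRT1 fell by 0.73 ± 0.06. ILDR2, a tight junction protein, rose by 1.36 ± 0.05. Of 20 integrins 6 rose and 9 fell: the vitronectin receptor pair ITGAV and ITGB3 fell by 0.44 ± 0.03 and 0.81 ± 0.03, and the fibronectin receptor chain ITGA5 by 0.79 ± 0.02. FN1, fibronectin, fell by 0.35 ± 0.03. Of 25 cadherins 6 rose and 8 fell, with CDH11 lower by 0.62 ± 0.03 and PCDH7 higher by 0.63 ± 0.03.

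In the hyaluronan matrix, 16 of 33 genes fell and 9 rose. HAPLN1, which locks hyaluronan to proteoglycan, had values of 14.39, 14.34 and 14.27 in the WT libraries and 12.50, 12.36 and 12.36 in the C4 libraries. ACAN, aggrecan, fell by 1.07 ± 0.03, the small proteoglycans LUM and BGN by 0.89 ± 0.03 and 0.86 ± 0.03, and CSPG4, the NG2 proteoglycan, by 0.65 ± 0.03. SDC2, a heparan sulfate carrier on the cell surface, rose by 1.02 ± 0.03, from 12.66, 12.63 and 12.60 to 13.66, 13.60 and 13.68. Of 40 matrix proteases and inhibitors 19 fell and 12 rose: ADAMTS9 fell by 0.96 ± 0.02, whereas MMP15 rose by 0.63 ± 0.03. Of 49 laminins and collagens 14 rose and 14 fell, with COL8A1 higher by 0.53 ± 0.03 and COL11A2 lower by 0.70 ± 0.03.

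Lineage lists moved less than the stress lists. Of 21 astrocyte genes 13 rose and 3 fell, with a median of 0.18, and 13 were higher in C4 than in B3. AGT, angiotensinogen, rose by 0.94 ± 0.05, from 8.07, 7.96 and 7.94 to 8.98, 8.88 and 8.94, ID4, an inhibitor of differentiation factors, by 0.74 ± 0.02, APOE by 0.37 ± 0.03 and GFAP by 0.23 ± 0.05 from its low level, whereas the gap junction gene GJA1 fell by 0.38 ± 0.03. Of 27 stem cell factors 9 rose and 9 fell. OLIG1 rose by 0.66 ± 0.05, OLIG2 by 0.32 ± 0.03 and POU3F2 by 0.40 ± 0.03. The Wnt pathway receptor LGR5 fell by 0.83 ± 0.05, KLF4 by 0.62 ± 0.03 and the RNA-binding protein MSI1 by 0.42 ± 0.04. NES differed by 0.01 ± 0.03 (adjusted p = 0.876) with overlapping libraries. Of 16 neuron genes 7 rose and 3 fell, RTN1 by 0.84 ± 0.04 upward and UCHL1 by 0.43 ± 0.03 downward. Of 17 oligodendrocyte genes 6 rose and 8 fell, with MAG lower by 0.71 ± 0.02.

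Signalling lists of development were lower in number more often than higher. Of 22 Notch pathway genes 12 fell and 4 rose, with the ligand JAG1 lower by 0.83 ± 0.04 and the receptor NOTCH3 by 0.62 ± 0.04. Of 36 Wnt pathway genes 17 fell and 3 rose, with the feedback inhibitors NKD1 and NKD2 lower by 0.87 ± 0.05 and 0.94 ± 0.04. Of 31 TGF-beta and BMP genes 13 fell and 7 rose, with ID1 lower by 0.51 ± 0.03. Of 48 axon guidance genes 22 fell and 12 rose, SLIT2 and SLIT3 by 0.77 ± 0.03 and 0.90 ± 0.05 downward and PLXNA2 by 0.66 ± 0.06 upward.

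Proliferation genes had medians near that of all genes. Of 38 DNA replication genes 7 rose and 16 fell, with a median of -0.02, and of 34 G2/M genes 11 rose and 10 fell, with a median of -0.008. MCM6 and MCM7, of the replicative helicase, fell by 0.43 ± 0.02 and 0.29 ± 0.02, and MCM6 lies in a lowered region of chromosome 2. MKI67, the proliferation antigen, rose by 0.27 ± 0.04, and KIF20A, a cytokinesis motor, by 0.29 ± 0.03, while the mitotic checkpoint kinase BUB1, also in the chromosome 2 region, fell by 0.34 ± 0.03. CCNB1, cyclin B1, differed by 0.01 ± 0.03 (adjusted p = 0.703). Direct contrast with B3 gave a different picture: 32 of the 38 replication genes and 29 of the 34 G2/M genes were lower in C4 than in B3, where the medians against WT were 0.14 and 0.30. Of 28 p53 target and apoptosis genes 12 rose and 12 fell, with PMAIP1, the BH3 protein NOXA, lower by 1.02 ± 0.03 and BAX higher by 0.24 ± 0.03.

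Cytosolic ribosomal protein genes were lower almost throughout. Of 85 tested 77 fell and 4 rose, with a median of -0.24. RPL31 fell by 0.67 ± 0.03, RPL8 by 0.60 ± 0.03, RPL32 by 0.52 ± 0.04 and RPS6, the S6 kinase substrate, by 0.47 ± 0.05. Of the 85 genes, 3 lie in the lowered chromosome regions described below. The genes named here for their large falls were not set apart by region and may be among those 3, so they may not be typical of the list. Without those 3 genes, 74 fell and 4 rose, and the median stayed at -0.24. The 4 that rose, named after their values were seen, were RPS27L, RPS26, RPL26L1 and RPL36AL, with differences of 0.26 ± 0.03, 0.24 ± 0.03, 0.10 ± 0.03 and 0.09 ± 0.03. In B3 the median against WT was -0.15, and 50 of the 85 genes were lower in C4 than in B3. Ribosomal protein genes have many processed copies, so single values are uncertain. Of 76 mitochondrial ribosomal protein genes 7 rose and 36 fell, with a median of -0.05, and of 81 oxidative phosphorylation genes 36 rose and 15 fell, with a median of 0.05.

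Parts of chromosomes 2 and 8 were lower in C4. Genes with a position (92.7% of those tested) were grouped in windows of 10 Mb, and 263 windows held at least 20 genes. In 9 of them the median difference lay at least 0.2 from that of all genes, all 9 on the lower side. They held 335 genes, of which 268 fell (80.0%, beside 28.0% of all genes) and 12 rose, with a median of -0.30. The other positioned genes had a median of 0.004. The highest median of any window was 0.113. Just below the threshold were the start of chromosome 3 (-0.198) and chromosome 2 from 90 to 100 Mb (-0.183).

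On chromosome 2 the 4 named windows were adjacent, from 100 to 140 Mb. Their medians ran from -0.30 at 100 to 110 Mb and -0.34 at 110 to 120 Mb to -0.43 at 120 to 130 Mb and -0.33 at 130 to 140 Mb. In the lowest window the library medians, relative to the WT mean, were 0.006, 0.001 and -0.002 in WT and -0.412, -0.437 and -0.425 in C4, and B3 had -0.021, -0.018 and 0.002. On chromosome 8 the 5 named windows lay at 50 to 60, 80 to 90, 100 to 110, 120 to 130 and 140 to 150 Mb, with medians of -0.22, -0.24, -0.22, -0.27 and -0.28. The windows between them that held enough genes were lower by less, with medians of -0.129 at 60 to 70 Mb, -0.146 at 70 to 80 Mb and -0.118 at 90 to 100 Mb. The windows were chosen by their medians, which are given as a description with no test. Over the 335 genes the median of B3 minus WT was 0.0. No DNA was measured, and copy number was not tested.

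**Figure D4:**
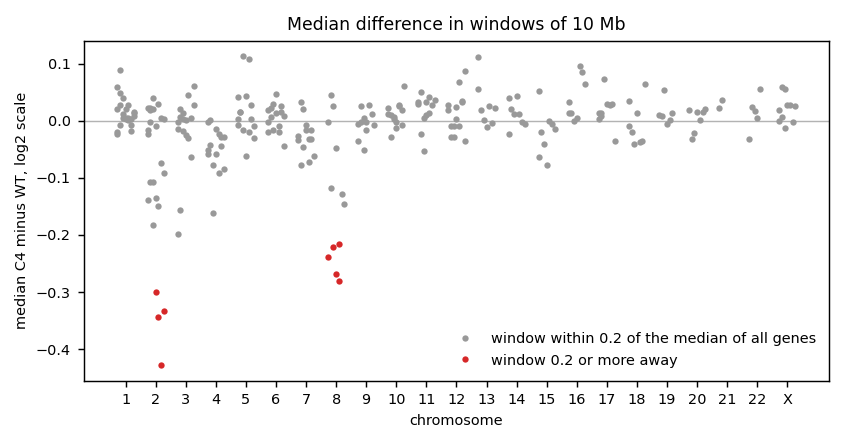
Each point is a window of 10 Mb with at least 20 tested genes, grouped by chromosome, at the median C4 minus WT difference of its genes on the log2 scale. The 9 windows in red, 4 on chromosome 2 and 5 on chromosome 8, have medians between -0.43 and -0.22, and no window lies above 0.113.

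Genes of varied function shared these falls. On chromosome 2, SLC20A1, a phosphate carrier, fell by 1.02 ± 0.03, from 16.68, 16.59 and 16.62 to 15.62, 15.62 and 15.58, UXS1, which makes UDP-xylose, by 0.88 ± 0.03, MGAT5, of N-glycan branching, by 0.77 ± 0.02, GLI2, the Hedgehog factor, by 0.61 ± 0.03, and the ribosome assembly protein IMP4 by 0.53 ± 0.02. On chromosome 8, PABPC1, the poly(A)-binding protein, fell by 0.57 ± 0.03, from 17.91, 18.01 and 17.99 to 17.43, 17.39 and 17.37, RIPK2, a kinase of innate immunity, by 0.51 ± 0.03, TRIB1 by 0.69 ± 0.03, RNF19A by 0.71 ± 0.02, HAS2, a hyaluronan synthase, by 0.60 ± 0.05, and the complex I subunit NDUFB9 by 0.49 ± 0.02. Without the 335 genes the median of the bHLH-PAS list was -0.05 in place of -0.11. Other list medians without them were -0.24 for ribosomal proteins, -0.28 for immediate early factors, 0.25 for sterol genes, -0.29 for cytosolic synthetases, and unchanged for the stress factors and the NF-kB list, of which none lie there.

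C4 was then set directly against B3. The WT libraries do not enter the difference in this contrast, but they enter the estimate of its spread. It called 9284 genes (56.4%), and 6578 genes (40.0%) were called both there and in C4 against WT. For 5922 of these, C4 lay apart from both other groups in the same direction. Both contrasts use the C4 libraries, which favours a shared direction in advance, so this count is a description only. Of the 9244 genes called in C4 against WT, 3966 were called with the same sign in B3 against WT, 1412 with the opposite sign and 3866 were not called there. Both comparisons with WT share the WT libraries, which favours calls of the same sign.

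ABCA8 was low in B3 as well. Its B3 libraries were at 8.38, 8.24 and 8.21, and C4 minus B3 was 0.02 ± 0.06 (adjusted p = 0.764). For C3 and PLBD1 the differences between the lines were 0.04 ± 0.03 and -0.10 ± 0.06, with adjusted p of 0.28 and 0.14. TMPRSS15, CHAC1, STC2 and ASNS differed between the lines. Their B3 means of 13.06, 12.68, 13.14 and 14.59 lay near the WT means of 13.35, 12.69, 13.09 and 14.67, and the differences of C4 from B3 were -2.58 ± 0.03, -2.24 ± 0.03, -1.90 ± 0.03 and -1.56 ± 0.03. SOD3, the extracellular superoxide dismutase, fell in C4 by 0.42 ± 0.03 and stood at 10.53, 10.53 and 10.50 in B3, so that C4 was higher than B3 by 2.56 ± 0.03.

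Some single genes went opposite ways in the lines, while the hyaluronan matrix list had medians of -0.075 in C4 and -0.04 in B3 against the shared WT libraries. HAPLN1 libraries were at 14.78, 14.77 and 14.88 in B3, above all WT libraries, whereas C4 lay below them, a difference of -2.40 ± 0.04 between the lines. ACAN followed the same order, with B3 at 12.86, 12.83 and 12.80. CADM2 was the reverse, with B3 at 9.57, 9.59 and 9.67, below WT, and C4 above WT. NRN1, the neurite growth protein neuritin, rose in C4 by 0.71 ± 0.04 and stood at 9.59, 9.62 and 9.58 in B3 beside 11.17, 11.26 and 11.18 in WT. MAGEC2 rose in C4 and was at 8.21, 8.19 and 8.15 in B3. Of 25 cancer-testis genes tested 4 rose and 16 fell in C4 against WT, with differences between -1.757 and 1.701. CTAG2 fell by 0.33 ± 0.03 and MAGEA10 by 0.18 ± 0.03. For CTAG2 and MAGEA10, C4 was higher than B3 by 2.40 ± 0.03 and 2.23 ± 0.03. These antigen families hold near-identical copies, so reads may be shared within them.

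**Figure D5:**
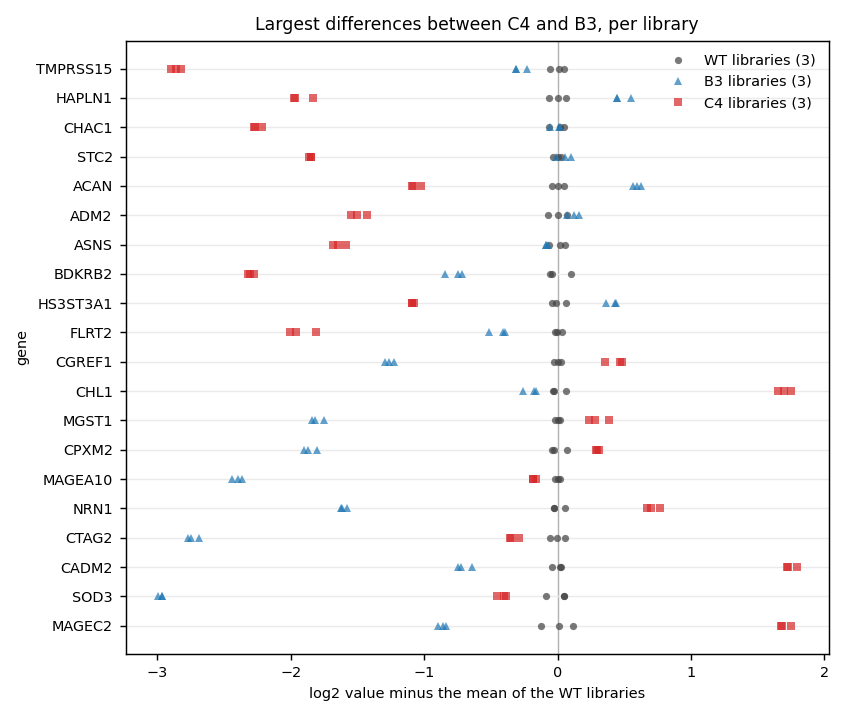
Each point is the log2 value of a library minus the mean of the 3 WT libraries, for the 20 genes with the largest differences between C4 and B3 among genes called in both C4 contrasts. The C4 and B3 points do not overlap for any of the 20 genes, and for ACAN, CADM2, CGREF1, CHL1, CPXM2, HAPLN1, HS3ST3A1, MAGEC2, MGST1 and NRN1 they lie on opposite sides of the WT points.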

How the data were processed

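Gene-level RNA values of 9 LN229 libraries (3 each of WT, C4 and B3) were used as deposited by the authors on a log2 scale. The submitters' processing notes name hg38 as the build and, as tools, DESeq2, Subread 1.6.3 and STAR 2.7.3a. The transform is not given in the sources used here. The median SD between replicates was 0.0443 at values of 8 to 12 and 0.00896 under 2. Whether differences of low genes were shrunk was not tested. Read depth is unknown. Columns left unused numbered 0.

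A gene was kept where its antilog averaged 10 or more across the 9 libraries. One model over the 3 groups was fitted with limma 3.58.1 in R 4.3.3 with data.table, version 1.17.8, with an intensity trend, and p-values were adjusted by Benjamini-Hochberg over all genes, with a threshold of 0.05. The fit was tested on simulated data. The genes named are the 15 with the largest change each way at a mean antilog of at least 50. These also had to be called, with C4 and WT libraries that did not overlap. Also named are up to 6 genes and the key members of each of 61 lists, up to 10 each way between C4 and B3, and up to 6 per named window. Genes outside this rule are marked as such, and some genes the rule took are not reported here. The members and lists were chosen with earlier results of these data known. Positions came from GENCODE 29 (GRCh38), matched for 15261 genes, and windows of 10 Mb with at least 20 genes were named at a shift of 0.2. Promoters came from RefSeq (GRCh38.p14). Same-numbered WT and C4 libraries did not deviate together (r = -0.105, -0.077 and 0.002), so replicate numbers were not taken as pairs. Alternatives covered added constants, filters, scaling, the fit, a replicate block and leaving out each library.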

Additional observations from a re-analysis of the deposited data

Results flagged for a closer look

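In 24 of the 545 genes taken by the naming rule or as markers, C4 and B3 were both called against WT with opposite signs. In these the lines also differed from each other by at least 1, tested by the direct contrast of C4 with B3 in limma. The rule took some genes for their large difference between C4 and B3, so this is not a count over all genes tested. Both comparisons with WT share the WT libraries. C4 minus B3 was -2.4 for HAPLN1, -1.66 for ACAN, -1.61 for ADM2, -1.5 for HS3ST3A1, -1.23 for SLC7A11, -1.09 for PTX3 and -1.04 for PSAT1. It was 1.02 for UBA7, 1.08 for AGT, 1.12 for IFITM1, 1.19 for CFB, 1.2 for IGFBP2, 1.34 for AHNAK, 1.39 for SDC2, 1.44 for CTSK, 1.47 for TYRP1, 1.63 for ILDR2 and 1.7 for CGREF1. The largest differences upward were 1.9 for CHL1, 2.1 for MGST1, 2.16 for CPXM2, 2.32 for NRN1, 2.45 for CADM2 and 2.56 for MAGEC2. Groups of 3 libraries were not examined for single outlying libraries.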

How the results depend on the processing

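Of 220 named genes called against WT, 218 kept their direction and call under every one of the 20 alternatives and 2, VIM and SOX9, lost the call under at least 1. Of the named genes not called, 4 (ARNT, HSPA5, CD14 and CSF1R) were called under at least 1 alternative, and 0 of the 237 recomputed genes reversed. With each library left out in turn, between 8387 and 9272 genes were called against WT, 4233 to 4654 higher and 4154 to 4618 lower, with 18 to 20 higher and 60 to 63 lower by at least 1. Against B3 the same ranges were 8363 to 9596 called, 4282 to 4861 higher, 4081 to 4735 lower, 50 to 53 higher and 27 to 31 lower by at least 1. The ARNT2 difference ranged from -1.473 to -1.386. With the replicate block 8961 genes were called against WT and 9017 against B3, and the block moved no count by over 1.5 times. The count higher than B3 by at least 1 was 50, and 33 with 100 added to the antilog. The median of the named windows, -0.301, became -0.287 with 100 added to the antilog, -0.323 at a mean antilog of at least 50, -0.272 with every library at the same total, -0.28 with each centred on its median, and -0.301 to -0.288 with a library left out. Of 1098 recomputed list medians, 949 stayed within the spread between libraries, 146 moved and 3 changed sign with both values beyond that spread. Sign changes of medians nearer 0 than the spread were not counted apart, so other lists with medians near 0 may also have changed sign. The 3 were the mitochondrial synthetases, at 0.02 with every library at the same total and 0.012 centred on the median, and the immune markers, at 0.009 with every library at the same total. The causes were not tested. Depth is unknown, so no limit from counting could be given.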
